A study of Mus musculus with 2 samples.

Results

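The genes described here encode core proteins of pre-mRNA splicing and packaging: SR proteins, heterogeneous nuclear ribonucleoproteins (hnRNPs), proteins of the small nuclear ribonucleoproteins (snRNPs), subunits of splicing factors 3a and 3b, and U2 auxiliary factor. They were chosen by symbol, as every protein-coding gene whose symbol starts with Srsf, Hnrnp, Snrp, Sf3a, Sf3b or U2af, and numbered 55 of 21474 protein-coding genes. The families held 11 Srsf, 20 Hnrnp, 12 Snrp, 3 Sf3a, 6 Sf3b and 3 U2af genes. RNA labelled as polyadenylated had been sequenced with paired ends from mouse leukemia stem cells in 1 group of 2 biological replicates. The cells were labelled as Friend virus infected (this murine retrovirus gives rise to erythroleukemia) and as positive for CD34, CD133, Kit and Sca1. They came from pooled males and females, adults of 10 to 12 weeks, of a strain carrying the sensitive allele of Fv2. The labels give different biosamples but a single donor record, so the spread between the libraries may be partly technical. No other condition was measured, so levels are given in each library and nothing was compared between conditions.

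A pre-mRNA loses its introns in the spliceosome, which is built from snRNPs. The U1 snRNP recognises the 5′ splice site, U2 auxiliary factor binds the 3′ end of the intron, and splicing factors 3a and 3b hold the U2 snRNP at the branch point. SR proteins mostly bind exonic enhancers and promote the use of nearby splice sites, whereas many hnRNPs bind silencers or package the transcript. Many SR and hnRNP genes also make transcripts with an early stop codon or a kept intron, through which their proteins limit their own production. The human genes SF3B1, SRSF2 and U2AF1 are recurrently mutated in myelodysplastic neoplasms.

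The files summed to 23575315 expected counts (estimated fragments) in replicate 1 and 22541765 in replicate 2. The 55 genes took 383737 of these in replicate 1 and 445454 in replicate 2. Levels are the deposited TPM, a share of all transcripts after division by transcript length, which allows levels of different genes to be compared. RNA of the labelled sort markers was scarce: 2 of 4 (Kit and Ly6a) reached 1 TPM in both libraries, Prom1, which encodes CD133, was listed at 0.06 and 0 TPM, and the list summed to 5.12 and 3.48 TPM in replicates 1 and 2. All 10 erythroid markers reached 1 TPM in both libraries, with summed levels of 112432 and 224065 TPM. Macrophage markers (6 of 8 detected in both) summed to 1023 and 1375 TPM, although Cd68, Csf1r, Mertk and Adgre1 were lower in replicate 2. Of the 8, 3 were called apart, as defined below, in replicate 1 and 1 in replicate 2. Over all genes with 20 or more counts these shares were 14.7% and 8.58%. B lineage markers (5 of 5) summed to 694.5 and 291.5 TPM, T and NK markers (3 of 5) to 79.5 and 76.6 TPM, and markers of other tissues (0 of 5, with Alb and Ttr at 0) to 1.22 and 0.98 TPM. Part of these sums moved between the libraries together with the ratios given below, and their part in those ratios was not tested. In such bulk samples, fewer cells of a type and less RNA per cell cannot be told apart.

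The 55 genes were expressed well above the typical gene but with wide spread inside every family. Of the 55, 51 reached 1 TPM in both libraries, against 41.6% of all protein-coding genes, and the mean of 23 was at least 100 TPM, against 5.62%. Their median was 73.6 TPM, against 0.55 TPM over all protein-coding genes. Together they held 1.19% and 1.38% of the summed TPM of replicates 1 and 2, or 11893 and 13806 TPM. A few genes carried most of this: Srsf2, Sf3a2 and Sf3b4 alone held 36.1% and 35.7% of the members' TPM.

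Among the SR proteins, Srsf2 stood far above the others. Srsf2 (ENSMUSG00000034120.14, mm10 chromosome 11, 116849901 to 116853094, minus strand) encodes SC35, which binds exonic enhancers, and had 1559 TPM in replicate 1 and 1827 TPM in replicate 2 (mean 1693 ± 190 TPM, SD, n = 2). Srsf10, whose product represses splicing when dephosphorylated, had 436.0 and 360.1 TPM, and Srsf1, the founding SR protein, 167 and 243 TPM. These 3 genes held 80.5% and 85.0% of the family's TPM. The intermediate genes were Srsf4 (109 and 184 TPM), Srsf6 (110 and 95.6 TPM), Srsf9 (59.5 and 93.5 TPM) and Srsf11 (84.3 and 38.1 TPM).

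The other SR genes were higher in replicate 1 than in replicate 2, or at 0 counts. Srsf7 had 50.1 TPM in replicate 1 and 1.04 TPM in replicate 2. Srsf3 had 33.2 and 4.82 TPM, and Srsf5 79.5 and 12.3 TPM. SRSF3 and SRSF7 shuttle with mRNA and bind the export factor NXF1. Srsf12 had 0 counts in both libraries, which allows up to 3 counts in each.

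All 20 hnRNP genes reached 1 TPM in both libraries. Hnrnpab (ENSMUSG00000020358.13, chromosome 11, 51600100 to 51606847, minus strand), an A/B-type RNA-binding protein, led the family with 756 and 1033 TPM (895 ± 196 TPM, SD, n = 2). Hnrnpl, which binds CA-rich RNA, had 571 and 673 TPM, and Hnrnpa0, an A/B-type protein encoded without introns, 417 and 778 TPM. Hnrnpul1 was nearly level at 305.5 and 306.9 TPM. Hnrnpd, which encodes the AU-rich element binding protein AUF1, had 180 and 415 TPM. The first 5 genes held 59.5% and 70.9% of the family's TPM.

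The classical A1, A2/B1 and C proteins of the hnRNP core particle were not the abundant ones by RNA. Hnrnpa2b1 had 236 and 90.7 TPM, Hnrnpa1 82.0 and 29.2 TPM and Hnrnpc, which competes with U2 auxiliary factor for uridine tracts, 6.05 and 3.11 TPM. All 3 were lower in replicate 2 by TPM. Hnrnpk, a KH-domain protein of poly(C) tracts, had 298 and 251 TPM and Hnrnpm 147 and 325 TPM. Among the G-tract binding F/H proteins, Hnrnph1 had 187 and 65.4 TPM, Hnrnpf 120 and 74.3 TPM, Hnrnph2 10.7 and 2.75 TPM, and Hnrnph3 6.08 and 6.72 TPM. The remaining genes, Hnrnpdl, Hnrnpa3, Hnrnpul2, Hnrnpr, Hnrnpll and Hnrnpu, lay between 20.8 TPM (Hnrnpu, replicate 1) and 158.5 TPM (Hnrnpdl, replicate 2).

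The snRNP genes were split between U1 proteins at high levels and most Sm proteins at low ones. Snrpa (ENSMUSG00000061479.11, chromosome 7, 27187005 to 27196271, minus strand), which encodes the A protein of the U1 snRNP, had 755 and 1093 TPM (924 ± 239 TPM, SD, n = 2). Snrpc, which encodes its C protein, had 316 and 572 TPM. The genes of the U2 proteins were lower: Snrpa1 had 40.4 and 32.0 TPM, and Snrpb2 2.38 TPM from 49 counts and 0.18 TPM from 6 counts.

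The 7 Sm proteins form a ring with 1 copy of each around most spliceosomal snRNAs, yet their RNA levels were far apart. Snrpb had 534 and 580 TPM. The others were Snrpd2 with 101 and 63.0 TPM, Snrpf with 63.8 and 70.4 TPM, Snrpd1 with 61.7 and 58.3 TPM, Snrpg with 15.4 and 9.19 TPM, Snrpd3 with 8.44 and 4.95 TPM, and Snrpe with 5.17 and 8.09 TPM. The highest gene of the ring exceeded the lowest 103-fold in replicate 1 (Snrpb over Snrpe) and 117-fold in replicate 2 (Snrpb over Snrpd3). Snrpn, the imprinted paralog of Snrpb best known from brain, had 0.69 and 2.05 TPM. How the estimates divided reads between Snrpn and Snrpb was not tested.

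The U2-associated factors showed the same inequality. Sf3a2 (ENSMUSG00000020211.11, chromosome 10, 80798198 to 80804924, plus strand) had 1160 and 1894 TPM (1527 ± 519 TPM, SD, n = 2). Its partners in the SF3a complex, Sf3a1 with 114 and 39.8 TPM and Sf3a3 with 11.75 and 17.97 TPM, were lower, so that the highest subunit exceeded the lowest 98.8-fold and 105-fold. Sf3b4 (ENSMUSG00000068856.3, chromosome 3, 96172332 to 96177564, plus strand) had 1574 and 1204 TPM (1389 ± 261 TPM, SD, n = 2). Sf3b2 had 185 and 96.5 TPM, Sf3b5 69.3 and 77.9 TPM, Sf3b1, the large scaffold of the complex, 16.7 and 9.32 TPM, and Sf3b3 16.8 and 3.73 TPM. Sf3b6, which encodes the p14 protein that contacts the branch point adenosine, was lowest with 1.29 and 0.26 TPM, from 25 and 5 counts. Of the U2AF heterodimer, U2af2, the subunit that binds the polypyrimidine tract, had 317 and 515 TPM and U2af1, which reads the AG at the 3′ splice site, 30.4 and 61.1 TPM. The ratio of U2af2 to U2af1 was 10.5 in replicate 1 and 8.44 in replicate 2. U2af1l4, a paralog of U2af1, had 61.3 and 13.3 TPM, above U2af1 in replicate 1 and below it in replicate 2.

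**Figure D1:**
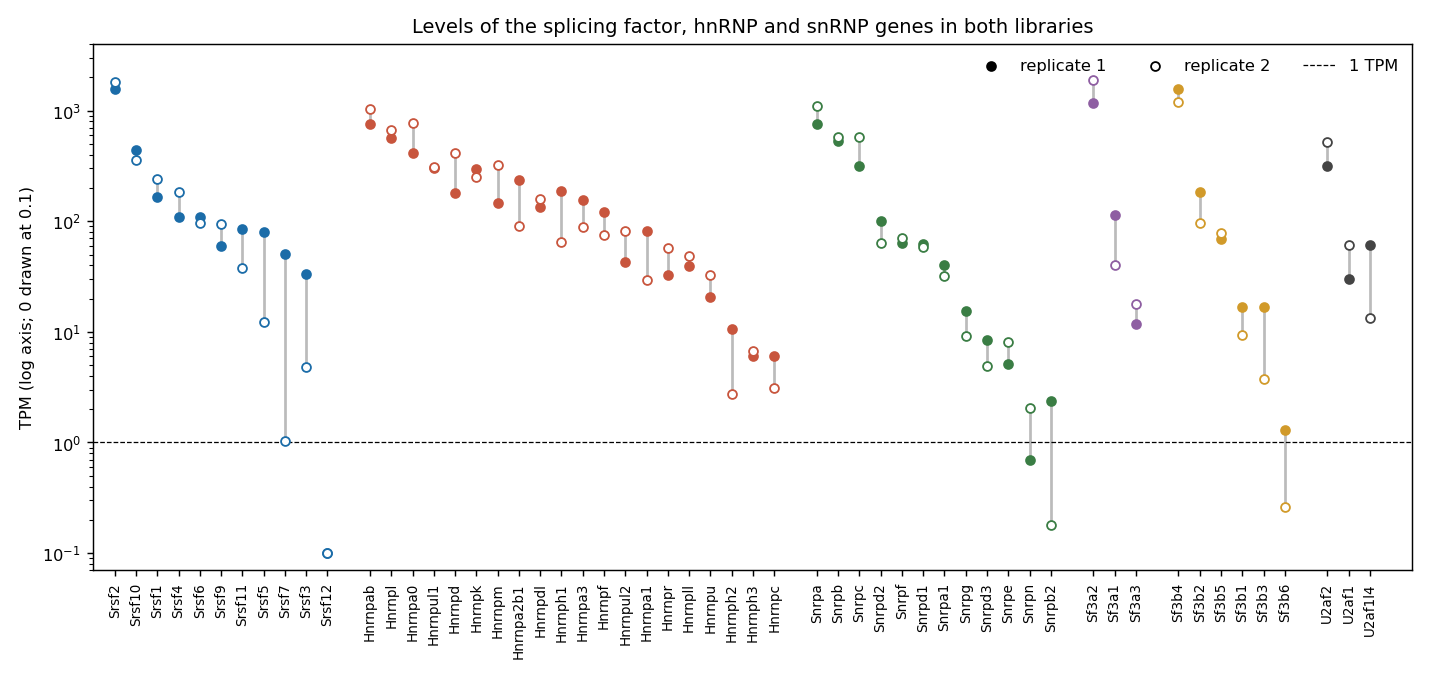
Level of each of the 55 genes in TPM (log axis, 0 drawn at 0.1), grouped by family; filled points are replicate 1, open points replicate 2 and the dashed line is 1 TPM. Srsf2, Sf3a2 and Sf3b4 lie above 1000 TPM in both libraries, and Srsf12, Snrpn, Snrpb2 and Sf3b6 have at least 1 library under 1 TPM.

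The libraries were then compared gene by gene from counts scaled by TMM (trimmed mean of M values), as a log2 ratio of replicate 2 over replicate 1 with an exact binomial 95% interval that covers counting error only. With 1 library on each side, this ratio compares the libraries and has no test. A gene was called apart when its interval lay wholly outside 2-fold. The 54 members with 20 or more counts had a median log2 ratio of 0.44, against −0.05 over all genes with as many counts; 31 were above 0 and 23 below. Of the 54, 7 were apart and higher in replicate 1 (13.0%, against 14.7% of all such genes), and 14 apart and higher in replicate 2 (25.9%, against 8.58%). This split depended on the scaling. Total counts are here the sums over protein-coding genes, 21581197 in replicate 1 and 18966009 in replicate 2. By total counts, which moved the median of all genes to −0.35, 12 members were apart in replicate 1 (22.2%, against 20.2% of all genes) and 5 in replicate 2 (9.26%, against 4.42%). By ratios of TPM, which moved the median of all genes to −0.44, 12 were apart in replicate 1 (22.2%, against 23.6%) and 2 in replicate 2 (3.70%, against 3.90%). Replicate 2 thus held 66.7%, 29.4% and 14.3% of the members apart under the 3 scalings. The members' median exceeded that of all genes by 0.49, 0.49 and 0.40 log2 units, respectively. Moving from TMM to total counts shifts every gene by about the same amount, so the first 2 differences had to be nearly equal.

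Among the genes called apart, the largest differences were those of SR genes that were higher in replicate 1. Srsf7 (ENSMUSG00000024097.10, chromosome 17, 80200080 to 80207307, minus strand) had 2123 counts in replicate 1 and 44 in replicate 2, a log2 ratio of −5.10 (−5.57 to −4.68). Srsf3 (ENSMUSG00000071172.8, chromosome 17, 29032628 to 29043373, plus strand) had 1498 and 121 counts, a log2 ratio of −3.14 (−3.43 to −2.88). Next among those called came Snrpb2 at −2.47 (−4.06 to −1.32), from few counts, Sf3b3 at −1.68, U2af1l4 at −1.52 and Srsf5 at −1.49. The seventh gene was Hnrnph1 at −1.44. Sf3b6, at −1.76 (−3.58 to −0.43) from 25 and 5 counts, was not called. In the other direction Snrpn led with a log2 ratio of 2.06 (1.41 to 2.82) from 24.5 and 73.0 counts. Hnrnpd had a ratio of 1.69 (1.64 to 1.74), U2af1 1.49, Hnrnpul2 1.42, Hnrnpa0 1.39 and Snrpc 1.33. The other 8 genes apart in that direction, Srsf4, Snrpa, Hnrnpr, Hnrnpu, U2af2, Sf3a2, Srsf9 and Hnrnpm, had ratios from 1.13 to 1.25. Under each of the 5 settings of scaling and count minimum, 6 genes (Srsf7, Srsf3, Sf3b3, U2af1l4, Srsf5 and Hnrnph1) were called higher in replicate 1 and only Hnrnpd higher in replicate 2. Snrpb2 was called higher in replicate 1 under every scaling and dropped out only at the minimum of 100 counts. The share of all genes called under every setting was not counted, so these numbers have no background.

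Family medians of the log2 ratio were 0.07 for Srsf, 0.81 for Hnrnp, 0.49 for Snrp, 1.10 for Sf3a, −0.38 for Sf3b and 1.20 for U2af. The Srsf median turned to −0.23 by total counts and −0.24 by TPM ratios. Within the SR family the ratios ranged from −5.10 (Srsf7) to 1.25 (Srsf4), so the families did not move as blocks. Within the SF3a complex, under TMM scaling, Sf3a2 had a log2 ratio of 1.19 and was called higher in replicate 2, while Sf3a1 had −1.03 (−1.09 to −0.98) and was not called. Both U2AF subunits, U2af2 and U2af1, were called higher in replicate 2, and U2af1l4, the paralog of U2af1, higher in replicate 1.

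**Figure D2:**
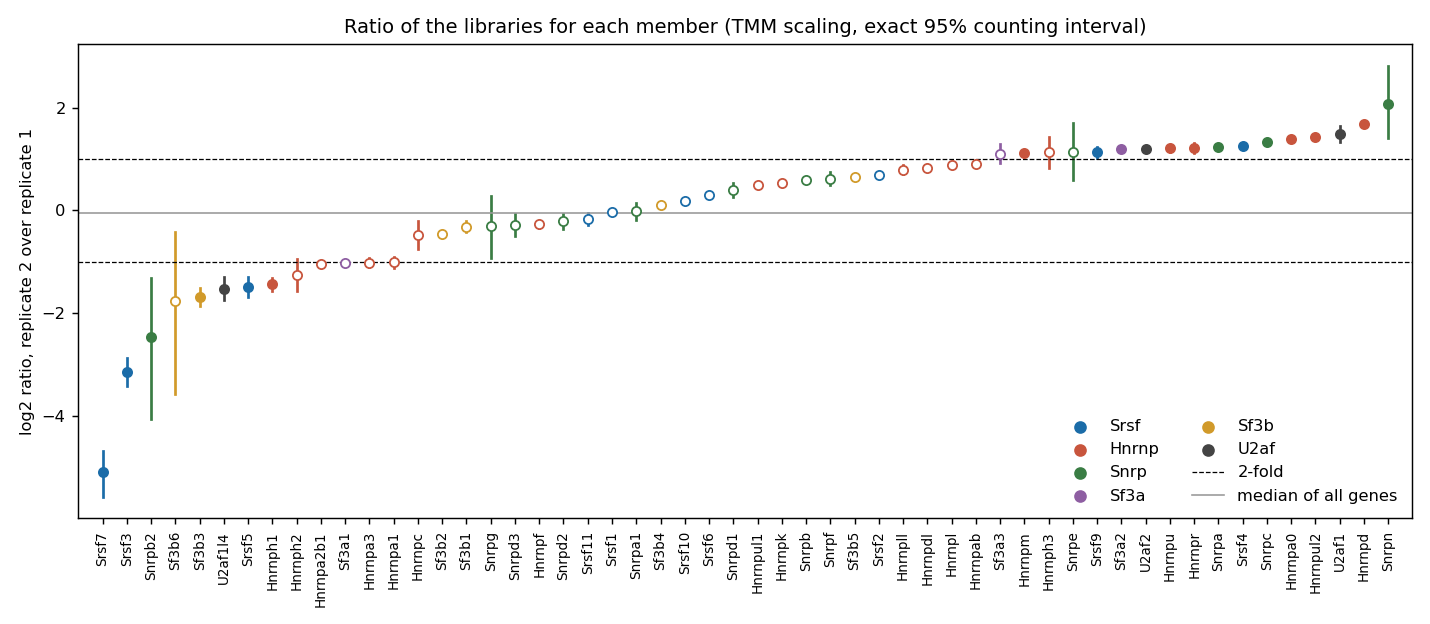
Log2 ratio of replicate 2 over replicate 1 for the 54 genes with 20 or more counts, ordered by value and coloured by family; bars are exact 95% counting intervals, filled points genes called apart, dashed lines 2-fold and the grey line the median of all genes. Srsf7 and Srsf3 lie lowest, at −5.10 and −3.14, and Snrpn and Hnrnpd highest, at 2.06 and 1.69.

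The transcript tables show which forms of each gene the reads were assigned to. The members had 316 transcripts, of which 156 are annotated in GENCODE M21 as protein coding, 84 as retained intron, 39 as targets of nonsense-mediated decay (the pathway that destroys mRNA with an early stop codon) and 36 as processed transcript, a class without an open reading frame. Coding transcripts held 87.8% and 87.5% of the members' TPM. Decay targets held 2.35% and 4.71%, retained introns 4.17% and 4.67%, and processed transcripts 5.67% and 3.12%. By counts the coding share was 92.9% and 92.7%, since TPM gives short transcripts more weight.

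Shares within genes were taken from the deposited percent of each transcript in its gene, for the 40 members with 2 or more transcripts and a mean of 5 TPM or more. The same transcript led in both libraries in 30 of the 40, against 70.6% of all genes that met these criteria, and a transcript without a coding class led in both in 8 of the 40, against 23.8%. The median share outside coding transcripts was 0.895% and 1.85% over the members in replicates 1 and 2, against 6.95% and 6.37% over all such genes. In 8 of the 40 (Hnrnpd, Hnrnpdl, Hnrnph1, Hnrnpll, Snrpa1, Srsf10, Srsf11 and Srsf6) this share was at least 50% in both libraries, near the 22.8% of all such genes, and in 6 of them, without Hnrnpd and Srsf11, it was so by counts too. By family, the median of this share was 19.1% and 64.7% over 9 Srsf genes and 3.99% and 13.7% over 17 Hnrnp genes, but 0.6% and 0.38% over 3 Sf3a genes and 0% in both libraries over 3 U2af genes.

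By TPM, transcripts annotated as decay targets led in Hnrnpll, Snrpa1, Hnrnpdl and Hnrnpd in both libraries. Hnrnpll, a regulator of exon choice in lymphocytes, had 93.6% and 87.8% of its TPM in Hnrnpll-203, from 1888 and 2177 counts. In Snrpa1 the transcript Snrpa1-201 held 95.4% and 84.4%, but none of its bases lies outside the coding transcripts of the gene. Decay targets held 56.9% and 73.3% of Hnrnpdl and 53.3% and 54.5% of Hnrnpd. In Hnrnpdl the leading Hnrnpdl-201 (30.6% and 43.3%) ends at the stop codon of a coding transcript, 126 bases before its last junction. Its stop is therefore not particular to decay targets. By counts the coding Hnrnpdl-202 led in replicate 1, with 41.8% against 33.2% for Hnrnpdl-201. In replicate 2 Hnrnpdl-201 led by counts too, with 44.3% against 35.0%. Snrpb differed between the libraries: Snrpb-203 held 0.31% in replicate 1, from 32.6 counts, and 30.2% in replicate 2, from 3450 counts. With the authors' posterior mean estimates these shares were 9.13% and 29.9%. Snrpe had 47.4% and 7.93% in decay targets, from 25.2 and 6.53 counts.

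The stop codons of 4 decay targets are shown because they place the early stop within the gene. Each line gives the coding bases of the exon that holds the stop, read 5′ to 3′ on the strand of the gene from the GENCODE M21 transcripts, with the stop codon in capitals.
Hnrnpll-203: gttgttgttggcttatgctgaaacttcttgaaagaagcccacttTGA
Snrpb-203: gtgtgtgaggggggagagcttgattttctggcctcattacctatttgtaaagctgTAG
Srsf11-206: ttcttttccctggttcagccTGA
Hnrnpd-205: gtcatggatcagaaagaacataaatTGA
In the first 3 the exon occurs in no coding transcript of the gene. The Hnrnpll sequence (mm10 chr17:80044976-80045022, minus strand) lies in an 83-base exon, 807 bases before the last exon junction of its transcript. The Snrpb sequence (chr2:130176695-130176752, minus strand) opens a 124-base exon and ends 596 bases before the last junction. The Srsf11 sequence (chr3:158024209-158024231, minus strand) opens a 109-base exon and ends 456 bases before the last junction. Hnrnpd-205 is of another kind: its sequence (chr5:99966156-99966183, minus strand) opens an exon shared with coding transcripts, 513 bases before the last junction. The 4 coding transcripts with an annotated stop that cover this codon read it in another frame, and none of them ends there.

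Retained introns led in Srsf6, where Srsf6-204 (chromosome 2, 162931528 to 162935208, 2897 bases, of which 1118 lie in no coding transcript) held 68.7% and 65.2% of the TPM from 4116 and 3409 counts. The retained-intron share was more than 10 percentage points higher in replicate 2 in 5 of the 40 members, against 11.1% of all such genes. It was 16.4% and 75.8% in Srsf3, 14.4% and 54.4% in Srsf1, 23.7% and 56.1% in Hnrnpm, 0.39% and 62.6% in Hnrnpa3, and 9.44% and 32.4% in Hnrnpk. It was as far higher in replicate 1 in 4 members, against 7.99% of all such genes. These were Srsf11 with 70.1% and 19.5%, Hnrnpl with 38.3% and 16.2%, Hnrnph3 with 20.1% and 0%, and Hnrnpdl with 12.3% and 0.26%. Decay targets held 14.3% and 53.0% of Srsf11. The Srsf3 share in replicate 2 rested on 121 counts for the whole gene. In Srsf1 the count ratio was −0.04 on the log2 scale while the TPM ratio was 0.54; its leading transcript was the 2948-base Srsf1-201 in replicate 1 and the 645-base Srsf1-206 in replicate 2.

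The leading transcript differed between the libraries, with at least 50% in each, in 4 genes. In Hnrnpm it was the coding Hnrnpm-201 (70.5%) in replicate 1 and the retained-intron Hnrnpm-203 (56.1%) in replicate 2. Hnrnpm-203 has 636 bases in the deposited table and 2626 in M21, and by counts Hnrnpm-201 led in both libraries, with 84.2% and 55.4%. In Snrpa both forms were coding, Snrpa-203 with 67.5% in replicate 1 and Snrpa-201 with 51.5% in replicate 2. In Hnrnph2 they were Hnrnph2-201 (74.2%) and Hnrnph2-205 (67.2%), also both coding, from 375 and 112 counts for the gene. Srsf3-202, a coding form, held 82.5% in replicate 1, and Srsf3-203, a retained-intron form, 70.6% in replicate 2, but by counts Srsf3-202 led in both, with 88.0% and 46.4%.

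Short transcripts of the processed class took most of 2 abundant genes. Srsf10-210 (chromosome 4, 135856112 to 135858801, 677 bases, of which 392 lie in no coding transcript) held 96.5% and 98.4% of Srsf10. Hnrnph1-208, of 582 bases, held 71.0% and 73.0% of Hnrnph1, whose processed transcripts together held 94.9% and 98.0%. In Srsf5 the processed share was 79.4% in replicate 1 and 28.7% in replicate 2. The TPM given above for Srsf10 and Hnrnph1 therefore came mainly from transcripts with no annotated protein. Fragments shared by several transcripts of a gene are divided by the estimation, so these shares are estimates, most of all where a transcript has few bases of its own.

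**Figure D3:**
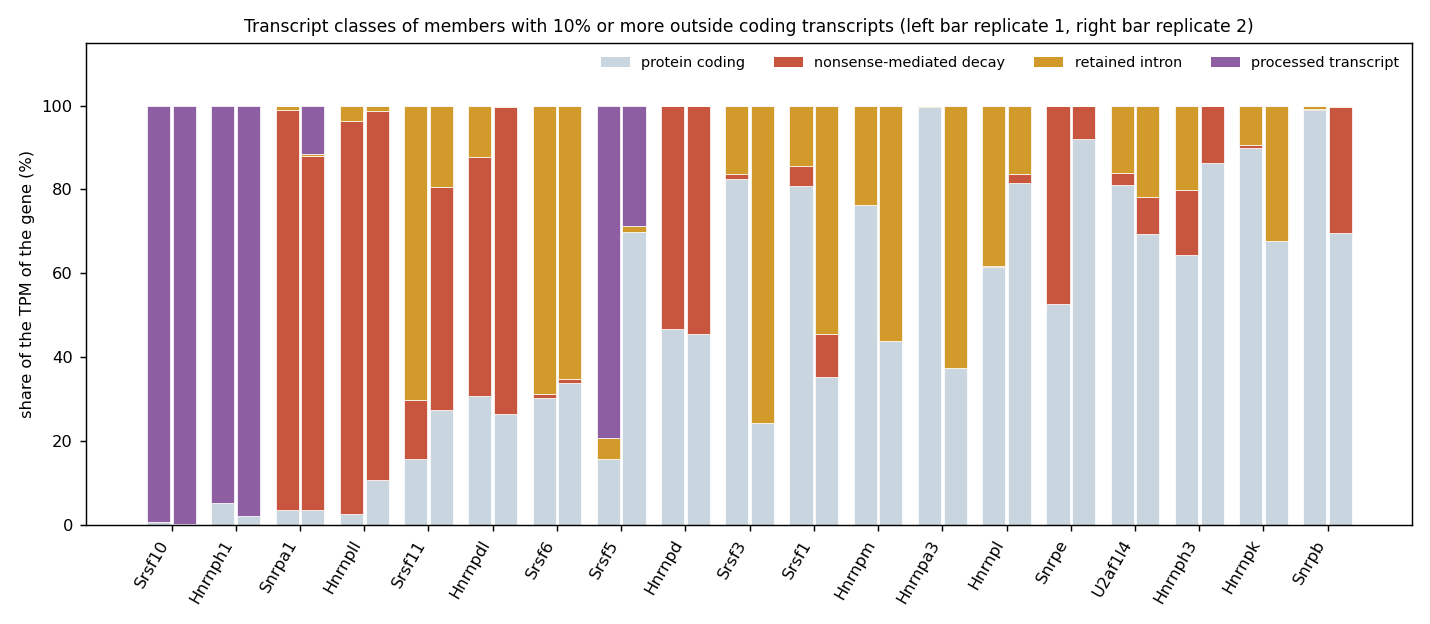
Share of each gene's TPM (%) in coding, decay-target, retained-intron and processed transcripts, for the 19 members with 10% or more outside coding transcripts in at least 1 library; the left bar of each pair is replicate 1 and the right bar replicate 2. Coding transcripts hold 30.2% and 33.9% of Srsf6, and 99.6% and 37.4% of Hnrnpa3.

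Level and replicate ratio both went with the base composition of the transcripts. Over the 51 members at 1 TPM or more in both libraries, the level on a log scale correlated with G+C content at r = 0.60 (Spearman rho 0.59), against r = 0.28 (rho 0.29) over 8919 protein-coding genes. For the replicate log2 ratio the values were r = 0.43 (rho 0.41) and r = 0.26 (rho 0.26). Genes share libraries and are not independent, so these are descriptions. The 27 members above the members' median G+C of 47.9% had a median of 146.5 TPM and a median log2 ratio of 0.89, and 2 were apart in replicate 1 and 11 in replicate 2. The 28 at or under it had a median of 44.2 TPM and a median log2 ratio of −0.27, with 5 apart in replicate 1 and 3 in replicate 2. These calls used TMM scaling, under which 14.7% of all genes with enough counts were apart in replicate 1 and 8.58% in replicate 2. By total counts only 5 of all members were apart in replicate 2, and by TPM ratios only 2. Transcript length showed weaker relations, at r = −0.18 with level and −0.13 with the ratio. The part of base composition in the levels and ratios given above was not tested.

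**Figure D4:**
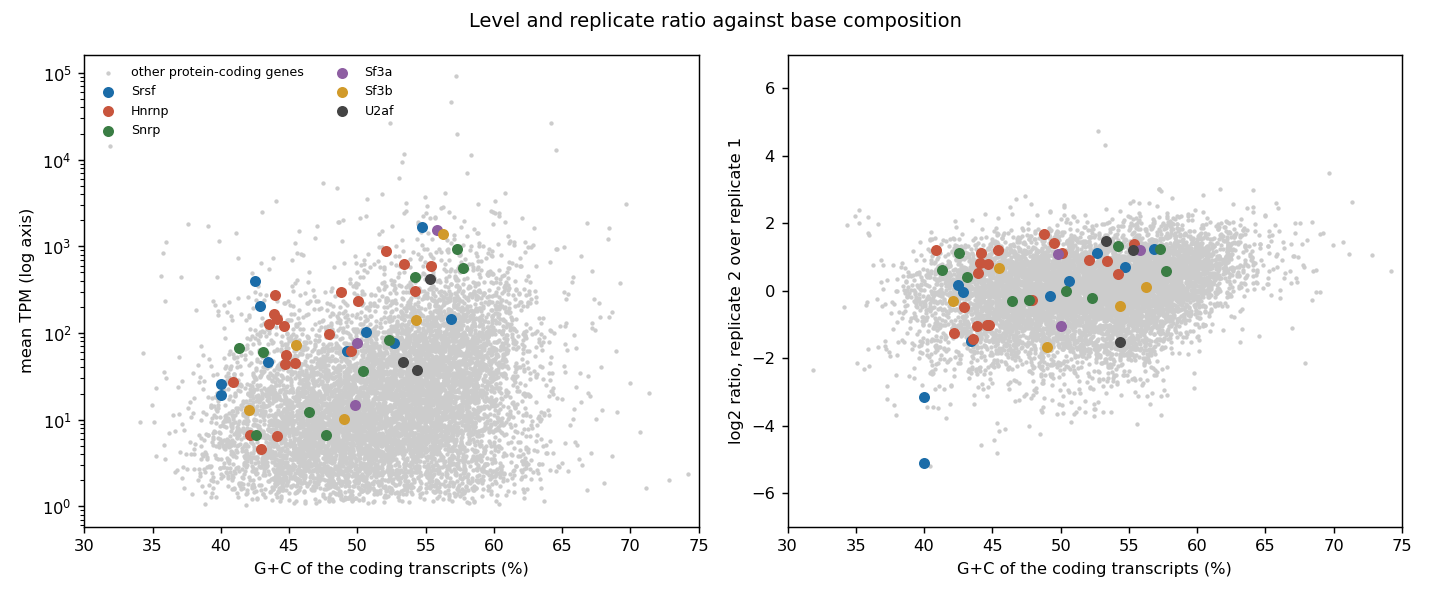
Mean TPM (left, log axis) and log2 ratio of replicate 2 over replicate 1 (right) against the G+C content of the coding transcripts (%), for genes at 1 TPM or more in both libraries; coloured points are the members by family and grey points other protein-coding genes. Members with more G+C lie higher in both panels, with r = 0.60 and 0.43 over 51 genes.

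Processed copies and overlapping genes bear on some of these values. Of the 55 genes, 28 shared 30 or more words of 25 bases with an annotated pseudogene, 95 pseudogenes in all, which held 94.5 TPM in replicate 1 and 31.1 TPM in replicate 2. Hnrnpa3 had the most, and its pseudogene Gm5641 held 47.6 and 3.49 TPM beside 156 and 88.1 TPM of Hnrnpa3 itself. Others with many were Hnrnpa1, Snrpc, Hnrnpf and Hnrnpr; Gm7935, a copy of Sf3b4, held 20.7 and 9.95 TPM. Adding the pseudogenes moved no member's mean level by more than the SD between the libraries. Genes that overlap a member and had 10 TPM or more in a library were Mettl23 and Mfsd11 (Srsf2), Plekhj1 (Sf3a2), Phykpl (Hnrnpab), Gucd1 (Snrpd3), Psenen (U2af1l4), Gm17092 (Hnrnpd), 4933440N22Rik (Hnrnpf) and March2 (Hnrnpm). All but March2 lie on the other strand. Whether the counting used strand is not given in the sources used here, so reads of such pairs may be mixed. March2, on the strand of Hnrnpm, had 109 and 31.6 TPM.

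Other genes of the splicing machinery were described from lists, with calls under TMM scaling. Over all protein-coding genes, 41.6% reached 1 TPM in both libraries. Of those with 20 or more counts, 14.7% were apart in replicate 1 and 8.58% in replicate 2. These shares stand beside the counts of every list below, and the members' calls changed with the scaling. Of 40 tri-snRNP, Prp19 and activation factors, 37 reached 1 TPM in both libraries, and 8 were apart in replicate 1 and 3 in replicate 2. Sf1, which binds the branch point before U2 arrives, was highest with 1993 and 3735 TPM, then Snrnp70, the U1-70K protein, with 330 and 451 TPM; Ppih was lowest with 1.99 and 0.85 TPM. Of 10 LSm proteins, most of which ring U6 snRNA or act in mRNA decay, 7 were detected, 1 was apart in replicate 1 and 2 in replicate 2. Lsm4 had 138 and 378 TPM, Lsm2 318 and 141 TPM, and Lsm5 was at 0 counts. Of 9 minor spliceosome genes 8 were detected and 2 were apart, both in replicate 2, with Zcrb1 (117 and 102 TPM) and Zmat5 (50.6 and 95.3 TPM) highest and Zrsr1 (0.80 and 0.67 TPM) lowest. Of 11 genes that assemble Sm rings 8 were detected, with 1 apart in replicate 1 and 2 in replicate 2: Prmt5, the methyltransferase of Sm tails, had 158 and 93.1 TPM, Smn1 77.3 and 156 TPM, and Gemin6 0.91 and 0.46 TPM.

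The kinases that phosphorylate SR proteins were modest, with 7 of 9 detected and 1 apart in each direction. Clk3 had 36.3 and 35.0 TPM, Clk2 22.8 and 38.5 TPM, and Srpk2 0.51 and 0.35 TPM. All 13 SR-related proteins were detected, with 2 apart in replicate 1 and 3 in replicate 2, led by the splicing coactivators Srrm1 (744 and 1230 TPM) and Srrm2 (495 and 144 TPM), while Tra2a was lowest (13.4 and 3.91 TPM). All 16 other hnRNP and RNA-binding genes were detected, with 2 and 3 apart; Pcbp1, a poly(C) binder, had 900 and 1198 TPM, Ptbp1, the polypyrimidine tract repressor, 1344 and 534 TPM, and Elavl1 13.8 and 4.66 TPM. Of the tissue-restricted regulators, 8 of 22 were detected in both libraries, near the 41.6% of all protein-coding genes, and 1 was apart, in replicate 1. Rbm38, an RNA-binding protein of erythroid cells, had 1395 and 683 TPM and Mbnl1 167 and 156 TPM, whereas Elavl4 and Esrp1 were at 0 counts.

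RNA of most factors that remove transcripts with early stops was detected. Of 10 decay factors 8 were detected, with 2 apart in replicate 1 and 1 in replicate 2: the helicase Upf1 had 146 and 169 TPM, Smg9 71.2 and 237 TPM, and Upf2 2.29 and 0.89 TPM. Of 5 exon junction complex genes 4 were detected and none was apart, with Eif4a3 (81.0 and 71.9 TPM) and Casc3 (38.0 and 32.3 TPM) highest and Magohb (1.27 and 0.20 TPM) lowest.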

How the data were processed

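Polyadenylated RNA was measured in 2 libraries of 1 group. Per the file headers, the authors' gene and transcript tables hold expected counts (estimated fragments), TPM, FPKM and the percent of each transcript in its gene; the deposited posterior mean TPM and FPKM served as alternatives. The readme names mm10 and GENCODE M4; an aligner or quantifier is not given in the sources used here. Of 69691 gene rows, 42462 matched a gene of GENCODE M21 by identifier, which gave symbols and classes. Promoters came from RefSeq (GRCm38.p6).

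The members and lists were chosen with earlier results of these data known. Named genes were, by rule, the 3 most abundant of each family, members under 1 TPM in a library, the 6 with the largest ratio among those apart in each direction, the 10 with the largest decay-target or retained-intron share, those whose leading transcript changed at 50% or more, those with most pseudogenes, and the extremes of each list; other names, and the limit of 10 percentage points for retained-intron shares, were added with the values in view.

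Expected counts were rounded for edgeR 4.0.16 (R 4.3.3), which gave TMM scaling over protein-coding genes; the ratio used a prior count of 0.5 and at least 20 counts. The call of genes apart was tried on simulated Poisson counts of 11710 genes, of which 200 differed 4-fold. The 200 were drawn from genes with 100 or more counts over both libraries. The call recovered 98.5% of them and called 0 of the unchanged genes. Recovery of genes with fewer counts was not tried. The unchanged genes differed by counting error only, so the simulation does not measure false calls between the real libraries. With 1 group there was nothing to test, and no p-value is given. Alternatives were other minimums, FPKM, posterior means, DESeq2 1.42.0 size factors, total counts of the protein-coding genes, TPM ratios, other priors, count shares, pseudogene sums and single libraries. Other software was Python 3.11.15, numpy 2.4.6, pandas 2.3.3, scipy 1.17.1 and matplotlib 3.10.9.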

Additional observations from a re-analysis of the deposited data

How the results depend on the processing

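The counts of detected members and of members at 100 TPM or more, and the number with the same leading transcript, stayed within 1.5 times of the reported values under every alternative run. The summed level was 14393 TPM when TPM was rescaled to nuclear protein-coding genes, against 12849 TPM as reported (11893 to 13806 TPM in the single libraries). The median log2 ratio of the members was 0.15 by total counts and −0.038 by TPM ratios, against 0.44, and that of Srsf −0.23 and −0.24, against 0.07. By total counts 12 members were apart in replicate 1 and 5 in replicate 2, and by TPM ratios 12 and 2, against 7 and 14. DESeq2 size factors and other count minimums changed neither count by over 1.5 times. The prior count enters the ratio but not its interval, so these calls cannot depend on it. The median share outside coding transcripts, 3.90% as the median of library means, was 6.51% with posterior means, 1.995% with a minimum mean of 1 or 20 TPM, 1.73% by counts, and 0.895% to 1.85% in the single libraries. Posterior means moved the level of Hnrnpul1 to 295.6 TPM and of Srsf12 to 0.09 TPM, and no other member's level by more than the SD between the libraries. No paired analysis was possible because there was 1 group. Depth limited Sf3b6, Snrpb2, Snrpn, Snrpg and Snrpe, which had the fewest counts among the members with any.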

Other observations

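The promoters of the members were compared with those of all protein-coding genes, using 300 bases (250 before and 50 after the start of transcription) from RefSeq on GRCm38.p6. Entries were found for 48 of the 55 members, with 66 promoters, and for 16317 genes with 19931 promoters. Members' promoters had a median G+C content of 61%, against 57%, and a median of 25.5 CpG dinucleotides, against 14. The letters TTCCGG, the core of sites for ETS factors, stood on either strand in 45.5% of members' promoters and 19.3% of all promoters. CCAAT stood in 45.5% and 37.8%, and TATAAA in 10.6% and 12.0%. Such a match is a description of the letters, and no binding was measured.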
